A study of Danio rerio with 16 samples.

Results

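The genes described here encode the structural proteins of epithelial cells and of cell-cell contacts: keratins, claudins, cadherins and protocadherins. They were taken by symbol, as the genes whose name in the probe annotation begins with krt, cyt1, cldn or pcdh, or with cdh and a digit. The rule found 73 of 15502 probe sets. With 1 probe set per gene, the one with the highest mean over the 16 arrays, these stand for 58 entries. Of these, 55 are single genes and 3 are probe sets shared by several genes, namely cyt1 with cyt1l and members of the clustered pcdh1g and pcdh2 genes. The symbol krtcap2 also begins with krt but is not a keratin; it encodes keratinocyte-associated protein 2, a subunit of the oligosaccharyltransferase, and is kept apart. Of the 58 entries, 44 were bright enough to be tested.

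Zebrafish embryos from incrosses of AB/WIK hybrid parents were dechorionated and treated in agarose-coated dishes, and total RNA of whole embryos was hybridised to Affymetrix arrays. The 4 groups held 4 independent samples each (n = 4 throughout), all listed at 2% dimethyl sulfoxide (DMSO). They were solvent controls, all-trans retinoic acid (RA) at 0.33 µM, and the RA receptor antagonist AGN193109 at 10 µM or at 1 µM. All compounds were diluted from DMSO stocks. Collection was at 11 hours post fertilization (hpf) in every group, when the first somites form. Controls and antagonist embryos were treated from 5.25 hpf for 5.75 hours and RA embryos from 6.5 hpf for 4.5 hours, so RA and the later start of its exposure cannot be told apart. The number of embryos in a sample is not given in the labels used here, whose titles spell the antagonist AGN193019.

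Keratins form the intermediate filaments of epithelial cells as pairs of a type I and a type II chain. In the zebrafish embryo they are abundant in the enveloping layer, the outer cell sheet that becomes the periderm, and in the epidermis beneath it. Claudins are the membrane proteins that build tight junctions and set what passes between cells. Classical cadherins hold cells together at adherens junctions through the catenins, and protocadherins are related surface proteins that guide sorting and movement of neural and mesodermal cells. RA binds nuclear receptors that switch genes on along the body axis, and AGN193109 occupies those receptors without activating them.

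Excess RA raised 2 of the 44 tested entries and lowered 3, with no keratin among them. With the replicate number as a block the count was 7, the keratin genes krt91 (adjusted p = 0.0431) and krt97 (adjusted p = 0.0201) being added. The claudin gene cldn3d rose 8.54-fold and the protocadherin gene pcdh10a 5.07-fold. The size for cldn3d rests on control values close to background: after 16 was added to every intensity its log2 fold change was 2.34 in place of 3.09. The controls of pcdh10a were also dim, and the same step gave it a log2 fold change of 1.86 in place of 2.34. The claudin gene cldn5a fell 1.90-fold, the paralogous protocadherin gene pcdh10b 1.95-fold and the mesenchymal cadherin gene cdh11 1.45-fold. A gene was called when limma's test across all probe sets gave a Benjamini-Hochberg adjusted p under 0.05. The 5 calls are 11.4% of the entries, against 5.75% of all 11843 tested probe sets, with 3.18% called higher and 2.57% called lower. The median log2 fold change was -0.02 over the 44 entries and 0.01 over all probe sets. An unadjusted p under 0.05 was found for 14 entries, against 1563 of all 11843 tested probe sets. Arrays of the RA and DMSO groups did not overlap for 11 of the 44 (3 higher and 8 lower under RA), a share to be read beside 10.1% of all probe sets. Neither antagonist dose called any of the 44 against DMSO.

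**Figure D1:**
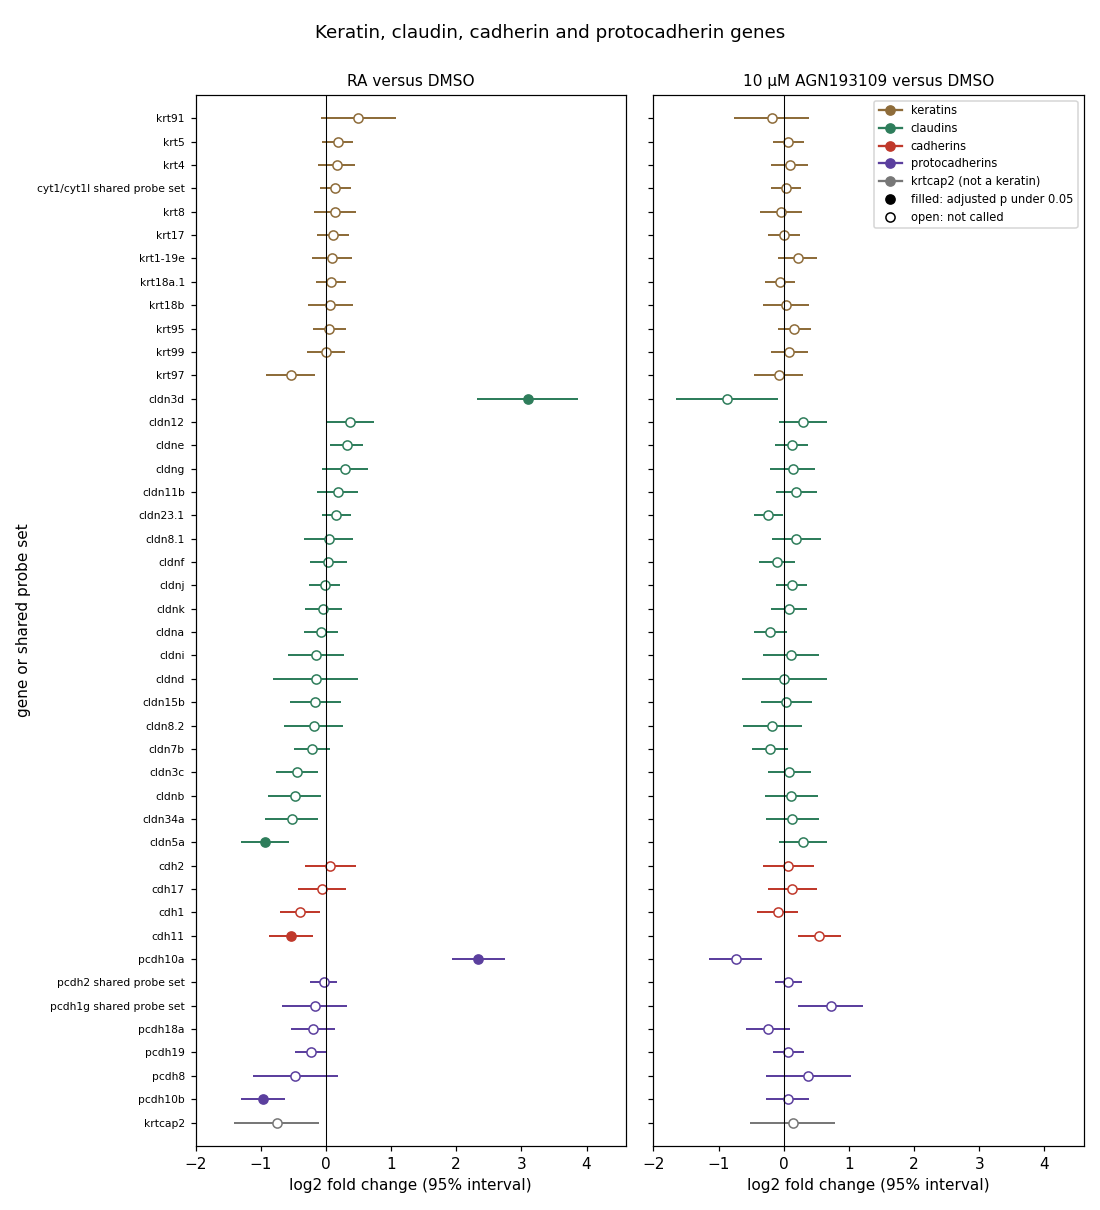
Log2 fold change with its 95% interval (horizontal axis) for each of the 44 tested genes or shared probe sets (vertical axis, coloured by family), for RA against DMSO on the left and for 10 µM AGN193109 against DMSO on the right; filled points were called at an adjusted p under 0.05. On the left cldn3d (3.09) and pcdh10a (2.34) stand far to the right of zero and the keratin points lie between -0.54 and 0.50, while on the right no point is filled.

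Among the keratins, 12 of 16 entries were tested and limma called 0 under RA, with 1 at an unadjusted p under 0.05. With 5.75% of all probe sets called, 0 of 12 is near the overall share. Of the 12 log2 fold changes 11 were above 0, against 6296 of 11843 over all tested probe sets, with medians of 0.10 and 0.01. Arrays of RA and DMSO did not overlap for 1 of the 12, krt5, higher under RA, against 10.1% of all probe sets. The genes krt4, krt5 and krt8 encode type II keratins and krt17 and krt18a.1 type I keratins. Over the 16 arrays krt18a.1 lay between 14.05 and 14.38 on the log2 intensity scale. On the same scale krt4 lay between 13.76 and 14.31, krt8 between 13.78 and 14.50, krt5 between 12.78 and 13.19 and krt17 between 12.73 and 13.26. Each of these genes thus varied by at most 0.72 over all arrays, treated or not.

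Against DMSO, RA gave log2 fold changes of 0.17 ± 0.13 (SE) for krt4, with a 95% interval from -0.10 to 0.43, and 0.19 ± 0.11 for krt5, from -0.04 to 0.41. For krt8 the value was 0.14 ± 0.15 (-0.17 to 0.44), for krt17 0.11 ± 0.11 (-0.12 to 0.34) and for krt18a.1 0.08 ± 0.10 (-0.13 to 0.29). Adjusted p-values for these 5 genes ran from 0.532 for krt5 to 0.826 for krt18a.1. Over RA and both antagonist doses, the intervals of these 5 genes reached from -0.35 to 0.44, so changes of 2-fold in intensity lay outside them in either direction. The 5 genes read up to 23240 in linear intensity, where the brightest probe set of an array read 30058 to 39318. Whether changes in RNA are read smaller at this brightness was not tested. The probe set shared by cyt1 and cyt1l, a pair of type I keratin genes, had 0.15 ± 0.10 (-0.07 to 0.36). Of the others, krt18b (0.07 ± 0.16) and krt1-19e (0.10 ± 0.14) lay close to the detection filter at log2 4, with values of at most 4.29 and 5.44.

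The RA arrays were not alike for these keratins. In krt4 the RA replicates read 14.31, 13.76, 14.15 and 13.90, and in krt8 14.50, 13.86, 14.40 and 13.96. Replicates 1 and 3 were the higher ones in both genes, as they were in krt5, krt18a.1 and the shared cyt1 probe set. Replicates 1 and 4 of the antagonist at 1 µM were the higher ones of their group in krt4, krt5, krt8 and krt18a.1, for example 14.15 and 14.17 against 13.82 and 13.91 in krt4. The DMSO arrays spread less, from 13.81 to 13.91 in krt4 and from 14.14 to 14.21 in krt18a.1.

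The keratin with the lowest p was krt97, whose DMSO arrays read 12.56, 12.43, 12.68 and 12.45 and whose RA arrays read 12.01, 11.74, 12.47 and 11.73. Of the RA arrays, replicate 3 lay among the controls and the other three below all of them. The log2 fold change was -0.54 ± 0.17 (adjusted p = 0.0854). With the replicate number as a block the adjusted p was 0.0201, and without RA replicate 3 it was 0.0108 at a log2 fold change of -0.70. No call came from leaving out any other RA or DMSO array. The keratin gene krt91 had RA values of 8.42, 9.37, 8.46 and 9.17 and DMSO values of 8.30, 8.30, 8.10 and 8.75. The groups overlapped, and the log2 fold change of 0.50 ± 0.26 had an adjusted p of 0.476, or 0.0431 with the replicate block. Its second probe set gave 0.46 ± 0.34 (adjusted p = 0.665).

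**Figure D2:**
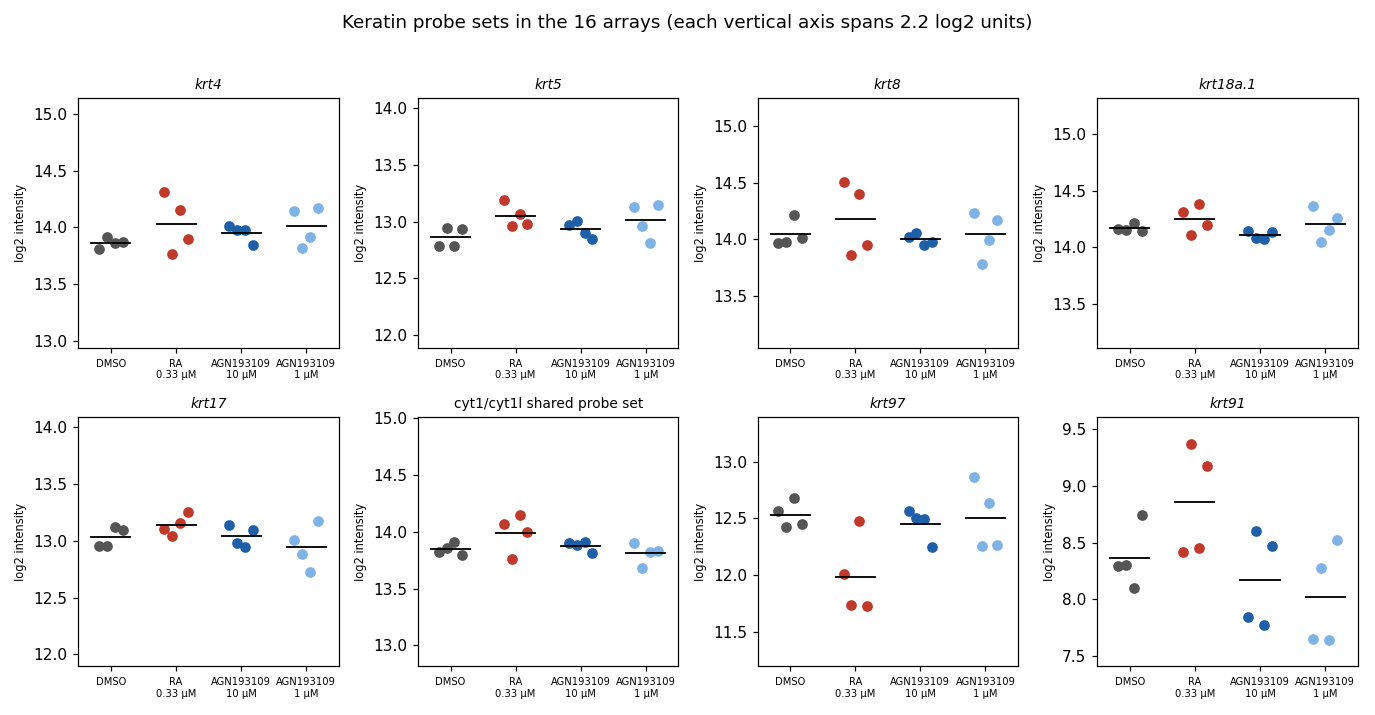
Log2 intensity (vertical axis, spanning 2.2 units in each panel) of 8 keratin probe sets by group (horizontal axis); each point is 1 array in order of its replicate number and each bar a group mean. The first 6 panels have nearly level bars, 3 of the 4 RA arrays of krt97 lie below the DMSO arrays, and RA replicates 2 and 4 of krt91 lie above all others.

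The claudins held the largest change of the whole set. Of 24 claudin genes 20 were tested, and under RA 1 rose and 1 fell, together 10%, against 5.75% of all probe sets. An unadjusted p under 0.05 was found for 7 of the 20, against 1563 of all 11843 tested probe sets. The cldn3d arrays read 4.32, 3.68, 4.49 and 4.39 in DMSO and 6.89, 6.91, 7.38 and 8.10 under RA. All 4 RA arrays thus lay well above all other arrays of the series, the highest of which was a DMSO array at 4.49. The log2 fold change was 3.09 ± 0.36 (95% interval 2.33 to 3.86, adjusted p = 1.20e-05). In the 3 groups without RA, 6 of the 12 arrays exceeded log2 4, so its level there was near the detection filter.

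In the gene table used for naming, cldn3d lies between cldn3c and cldnb. Beyond cldnb come cldn29, which is not among the entries, and then cldnd. Of this row, cldn3c, cldnb and cldnd gave values of the other sign under RA, and none of them was called in the main fit. For cldnb, which marks the epidermis and the lateral line primordium in zebrafish, DMSO read 9.70, 9.70, 9.73 and 9.98 and RA 8.80, 9.55, 9.21 and 9.63. No RA array reached a DMSO array, yet the log2 fold change of -0.48 ± 0.18 had an adjusted p of 0.198. For cldn3c the DMSO values were 4.34, 4.49, 4.31 and 4.29 and the RA values 3.51, 4.15, 3.81 and 4.21. These groups did not overlap either, at a log2 fold change of -0.44 ± 0.15 (adjusted p = 0.111). The value of cldnd was -0.16 ± 0.30 (adjusted p = 0.901).

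The claudin that fell was cldn5a, which in zebrafish seals the lining of the brain ventricles. Its DMSO arrays read 7.73, 7.55, 7.40 and 7.66 and its RA arrays 6.59, 6.87, 6.72 and 6.44. Every RA array lay below every array of the other 3 groups. The log2 fold change was -0.93 ± 0.17 (adjusted p = 0.00140). Further probe sets for the gene gave -0.42 ± 0.36 (adjusted p = 0.718) and -0.23 ± 0.17 (adjusted p = 0.652). When the 3 probe sets were averaged, the log2 fold change was -0.53 with an adjusted p of 0.187, so the call rests on the brightest probe set.

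The remaining claudin genes were not called under RA. For cldne, a claudin gene of the enveloping layer, DMSO read 8.11, 8.11, 8.0 and 8.44 and RA 8.60, 8.45, 8.41 and 8.47. DMSO replicate 4 lay among the RA arrays and the other controls below them. The log2 fold change was 0.32 ± 0.11 (adjusted p = 0.133), or 0.41 with an adjusted p of 0.0350 without that array. Leaving out any other RA or DMSO array gave no call. Its neighbours in the gene table, cldnj (-0.02 ± 0.10) and cldnf (0.04 ± 0.13), and cldna on the far side of cldnf (-0.07 ± 0.11) had adjusted p-values of 0.871 or more. The values for cldn7b (-0.22 ± 0.12, adjusted p = 0.528), cldni (-0.15 ± 0.20, adjusted p = 0.837) and cldn34a (-0.52 ± 0.18, adjusted p = 0.142) did not pass either. In cldn34a the RA arrays lay below all DMSO arrays, though only just (highest RA 5.836, lowest DMSO 5.844). Over the 18 claudins not called, log2 fold changes under RA ran from -0.52 to 0.38.

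Of 8 classical and atypical cadherin genes 4 were tested, and cdh11 was called. In cdh11, a cadherin of mesenchymal cells, DMSO arrays read 8.90, 8.97, 8.66 and 8.86 and RA arrays 8.46, 8.22, 8.29 and 8.27. The RA arrays lay below all others of the series. The log2 fold change was -0.54 ± 0.15 (adjusted p = 0.0445), and a second probe set gave -0.53 ± 0.14 (adjusted p = 0.0289). On the first probe set the call depended on nearly each of the 8 arrays: leaving out 1 of them ended it in 7 of 8 cases, with adjusted p from 0.0539 without RA replicate 1 to 0.127 without DMSO replicate 2, and it held without DMSO replicate 3.

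The genes for E-cadherin and N-cadherin were not called in the main fit. With array weights limma called cdh1 (adjusted p = 0.0394). For cdh1, the E-cadherin gene needed for the spreading of the blastoderm over the yolk, DMSO read 10.92, 10.80, 10.91 and 11.13 and RA 10.30, 10.77, 10.63 and 10.47. The groups did not overlap, and the log2 fold change was -0.39 ± 0.14 (95% interval -0.69 to -0.10, adjusted p = 0.145). For cdh2, the N-cadherin gene of the neural tube and somites, the value was 0.07 ± 0.18 (-0.31 to 0.44, adjusted p = 0.933), and its second probe set gave 0.01 ± 0.35. The RA arrays of cdh2 read 11.64, 10.89, 11.57 and 10.94, with replicates 1 and 3 above all DMSO arrays and replicates 2 and 4 below all of them. The value for cdh17 was -0.06 ± 0.17 (adjusted p = 0.942). The genes cdh4, cdh13, cdh15 and cdh18a did not pass the filter, and their highest array values ran from 3.59 for cdh4 to 4.23 for cdh15.

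Among the protocadherins 7 of 9 entries were tested, and the paralogues pcdh10a and pcdh10b went opposite ways. The pcdh10a arrays read 4.84, 4.81, 5.50 and 4.48 in DMSO and 7.38, 6.96, 7.20 and 7.45 under RA. All RA arrays stood clear of the 12 others. The log2 fold change was 2.34 ± 0.19 (95% interval 1.95 to 2.73, adjusted p = 1.08e-07). Of 3 probe sets for the gene the others did not pass the filter. The brighter of these read 5.04, 3.82, 4.93 and 4.73 under RA and 2.23 to 2.46 on the 12 other arrays, so 3 arrays exceeded log2 4. The dimmer read 2.26 to 2.62 over all arrays. In pcdh10b DMSO read 8.34, 8.53, 8.28 and 8.26 and RA 7.64, 7.42, 7.25 and 7.25. Every RA array lay below every array of the other 3 groups, at a log2 fold change of -0.96 ± 0.15 (adjusted p = 0.000332). Both paralogues belong to the delta group of protocadherins, which act through the actin cytoskeleton.

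The gene next to pcdh10a in the gene table, pcdh18a, had -0.20 ± 0.15 (adjusted p = 0.685). For pcdh19, which in zebrafish works with N-cadherin in neural tube formation, DMSO read 10.02, 10.01, 9.84 and 9.97 and RA 9.80, 9.74, 9.72 and 9.63. The RA arrays were the lowest of the series, at a log2 fold change of -0.24 ± 0.10 (adjusted p = 0.316). For pcdh8, the paraxial protocadherin of the presomitic mesoderm, values scattered widely, with DMSO arrays from 6.01 to 7.39 and RA arrays from 5.68 to 6.92. Its log2 fold change was -0.47 ± 0.30 (95% interval -1.11 to 0.16, adjusted p = 0.593). The shared pcdh1g probe set had -0.17 ± 0.23 and the shared pcdh2 probe set -0.03 ± 0.09.

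At 10 µM the antagonist moved no entry past the threshold. An unadjusted p under 0.05 was found for 5 of the 44, against 610 of all 11843 tested probe sets. Arrays of the antagonist and DMSO did not overlap for 3 of the 44, against 5.45% of all probe sets, and 0.397% of all probe sets were called (0.0844% higher and 0.312% lower). Those 3 were cdh11, pcdh10a and the shared pcdh1g probe set. In cdh11 the antagonist arrays read 9.55, 9.24, 9.54 and 9.23, above all DMSO arrays, at a log2 fold change of 0.55 ± 0.15 (adjusted p = 0.282). In pcdh10a they read 4.11, 4.14, 4.10 and 4.35, below all DMSO arrays, at -0.73 ± 0.19 (adjusted p = 0.166). The pcdh1g probe set read 8.01, 7.51, 8.26 and 7.56 against 6.83, 7.42, 6.84 and 7.39 in DMSO, at 0.72 ± 0.23 (adjusted p = 0.547). A count of 3 in 44 is close to the share over all probe sets.

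For cldn3d the antagonist arrays read 3.32, 3.21, 2.68 and 4.20, and the log2 fold change was -0.87 ± 0.36 (95% interval -1.63 to -0.11, adjusted p = 0.830). For cldn5a they read 7.68, 7.73, 8.07 and 8.02, at 0.29 ± 0.17 (adjusted p = 1.00), and pcdh10b had 0.06 ± 0.15 (-0.26 to 0.38). Keratins gave values from -0.19 for krt91 to 0.21 for krt1-19e. The value was -0.09 ± 0.14 for cdh1 and 0.07 ± 0.18 for cdh2.

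At 1 µM limma also called 0 of 44, with 4 at an unadjusted p under 0.05, against 744 of all 11843 tested probe sets. No entry separated the arrays of this group from DMSO, against 2.1% of all probe sets, and 0.144% of all probe sets were called (0.0253% higher and 0.118% lower). In cdh11 these arrays read 9.58, 8.94, 9.16 and 9.64, and the log2 fold change was 0.48 ± 0.15 (adjusted p = 0.680). The value was -0.34 ± 0.19 for pcdh10a (arrays 4.92, 4.51, 4.43 and 4.40), -0.54 ± 0.36 for cldn3d (arrays 4.30, 4.12, 3.59 and 2.73) and 0.15 ± 0.17 for cldn5a. In pcdh10b it was 0.38 ± 0.15 (adjusted p = 0.745), with replicate 1 at 9.19 and the other arrays between 8.52 and 8.68. Replicates 1 and 4 stood apart from replicates 2 and 3 in some of the entries. For krtcap2, named after its values were seen, they read 7.61 and 7.62 against 8.83 and 8.98, and in the shared pcdh1g probe set 8.15 and 8.18 against 7.28 and 7.35. For krtcap2 the log2 fold change was -0.71 ± 0.30 at 1 µM (adjusted p = 0.745) and -0.76 ± 0.30 under RA (adjusted p = 0.237, or 0.0495 when those arrays were left out). Leaving out replicates 1 and 4 of this group, an alternative chosen after seeing the data, again gave 0 calls against DMSO.

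A direct comparison of the antagonist doses called 0 of 44, against 0.00844% of all probe sets. An unadjusted p under 0.05 was found for 6 of the 44, against 1056 of all 11843 tested probe sets. Arrays did not overlap for 7 of the 44, against 4.96% of all probe sets. The 95% interval of the difference (10 µM minus 1 µM) ran from -0.25 to 0.38 for cdh11 and from -0.78 to 0.00 for pcdh10a. For pcdh18a the 10 µM arrays lay between 7.05 and 7.23 and the 1 µM arrays between 7.25 and 7.81, at a difference of -0.51 ± 0.15 (adjusted p = 0.554).

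RA and 10 µM antagonist were also compared with each other, since both comparisons above share the DMSO arrays. Those arrays do not enter the difference, but they enter the estimate of the spread. Of the 44 entries, 3 were higher and 6 lower under RA, together 20.5%, against 8.85% of all probe sets (4.79% higher and 4.06% lower). Arrays did not overlap for 13 of the 44, against 13.8% of all probe sets. Between these groups cldn3d differed 15.6-fold (log2 difference 3.96 ± 0.36, adjusted p = 4.22e-07) and pcdh10a 8.43-fold (3.08 ± 0.19, adjusted p = 2.12e-09). The antagonist arrays of both genes lay near or below the detection filter, and with 16 added to every intensity the log2 differences were 2.72 and 2.30. On the lower side were cldn5a (-1.22 ± 0.17, adjusted p = 6.06e-05), cdh11 (-1.08 ± 0.15, adjusted p = 6.82e-05) and pcdh10b (-1.02 ± 0.15, adjusted p = 0.000125). These 5 calls remained without any single array of the pair of groups. For cdh11 the order of the group means was RA at 8.31 ± 0.10 (SD), DMSO at 8.85 ± 0.13, 1 µM antagonist at 9.33 ± 0.34 and 10 µM antagonist at 9.39 ± 0.18, and the antagonist doses did not differ beyond their spread.

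The other 4 calls in this comparison were smaller. In cldn23.1, a claudin gene, RA arrays read 9.49, 9.49, 9.42 and 9.39 and antagonist arrays 9.08, 9.13, 8.93 and 9.04. DMSO arrays lay between and across both, from 9.09 to 9.45. The log2 difference was 0.40 ± 0.10 (adjusted p = 0.0157), and without antagonist replicate 3 the adjusted p was 0.0647. In cldn34a, another claudin gene, RA arrays read 5.84, 5.64, 5.16 and 5.14 and antagonist arrays 5.88, 6.13, 6.08 and 6.31, at -0.65 ± 0.18 (adjusted p = 0.0327). Leaving out RA replicate 3 or 4, or antagonist replicate 2, 3 or 4, ended the call (adjusted p from 0.0724 to 0.123). In cldn3c antagonist arrays read 4.33, 4.54, 4.59 and 4.32, all above the RA arrays, at -0.53 ± 0.15 (adjusted p = 0.0298). Here RA replicates 1 and 3 and antagonist replicates 2 and 3 each decided the call (adjusted p from 0.0876 to 0.101 without them). The call also ended after quantile normalization, with 16 added to every intensity and with the arrays of these groups alone (adjusted p from 0.0676 to 0.105). The shared pcdh1g probe set had RA arrays at 7.01, 6.78, 6.87 and 7.12, all below the antagonist arrays, at -0.89 ± 0.23 (adjusted p = 0.0193). The array that decided it was any of RA replicates 2 and 3 and antagonist replicates 1 and 3 (adjusted p from 0.0529 to 0.0801 without 1 of them). Without antagonist replicate 3, all 4 of these smaller calls ended and 5 of the 9 remained.

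**Figure D3:**
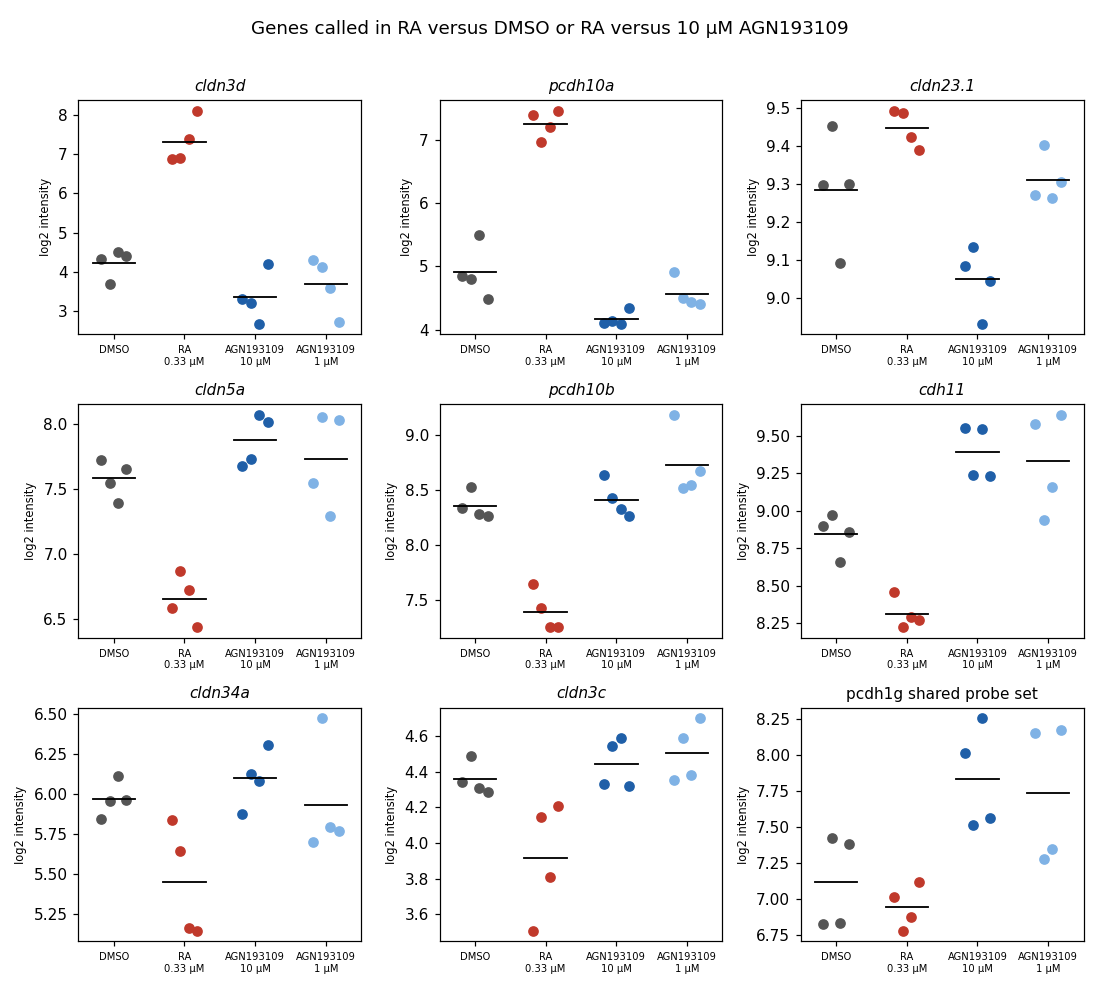
Log2 intensity (vertical axis, scaled separately in each panel) by group (horizontal axis) for the 9 entries called between RA and DMSO or between RA and 10 µM AGN193109; each point is 1 array in order of its replicate number and each bar a group mean. RA points lie above all others in cldn3d and pcdh10a and below all others in cldn5a, pcdh10b and cdh11. In cldn23.1 the RA points lie above the 10 µM points, with DMSO points between and across both.

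The claudin gene cldng, found in the epidermis, is read by 4 probe sets that did not go together. On the probe set S5_a, the 8 arrays with replicate number 1 or 3 lay between 11.58 and 12.31 and the 8 with number 2 or 4 between 8.77 and 10.38. On the probe set S3 the order was the opposite, with 10.61 to 10.89 for numbers 1 and 3 and 10.95 to 11.62 for numbers 2 and 4. In each case all 4 groups, treated or not, showed the split. Of 54 tested probe sets of these genes, 1 separated the numbers in each direction, a split looked for after the values were seen. Over all tested probe sets 0.903% were higher and 0.304% lower in numbers 1 and 3, which is 107 and 36 of 11843. A count of 1 in each direction is too small to set against these shares. Whether the shares differ from chance was not tested, and neither was what lies behind the split. The probe set used for the gene, S4_x, showed no such split, and its log2 fold change under RA was 0.29 ± 0.16 (adjusted p = 0.507). The fourth probe set, S1, showed no such split either and gave -0.68 ± 0.27 under RA (adjusted p = 0.223), of the other sign.

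**Figure D4:**
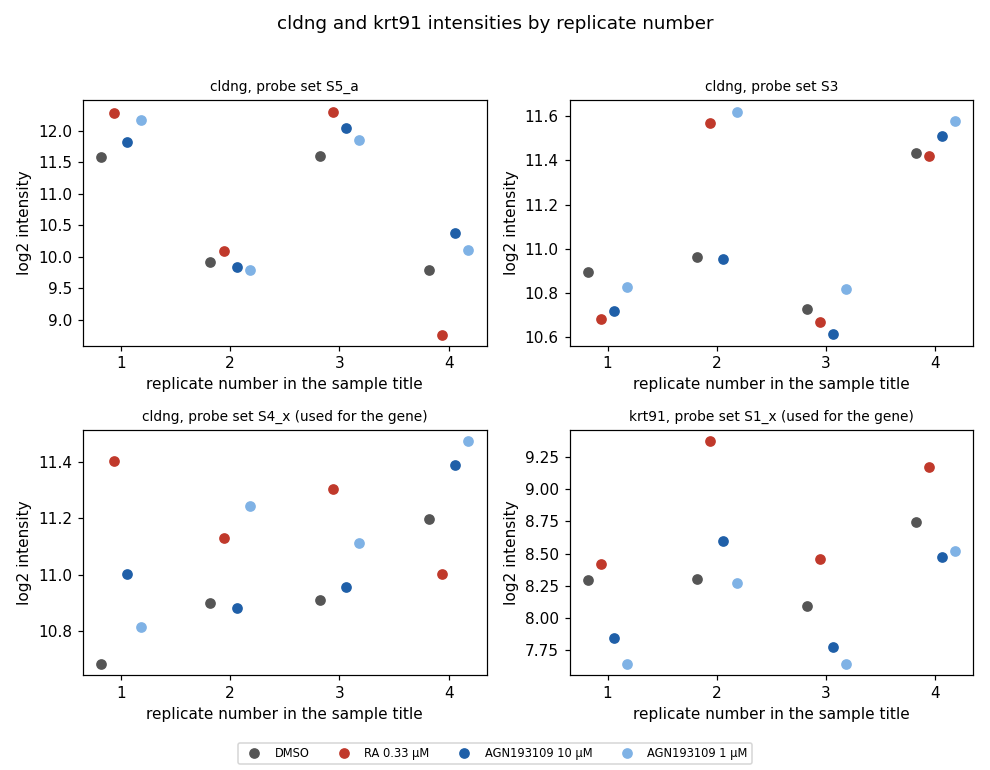
Log2 intensity (vertical axis, scaled separately in each panel) against the replicate number in the sample title (horizontal axis) for 3 probe sets of cldng and 1 of krt91; each point is 1 array, coloured by group. On S5_a numbers 1 and 3 lie above numbers 2 and 4, on S3 below them, and on S4_x they overlap, while the krt91 values of RA numbers 2 and 4 (9.37 and 9.17) are the highest in their panel.

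Partner proteins and regulators of these genes were read from lists of symbols, leaving out the members of the set. A gene could stand in more than 1 list, so the counts of the lists are not separate from each other. Of 10 tested genes of the adherens junction and related adhesion proteins, among them the catenin genes ctnna1, ctnnb1 and ctnnd1 and the gene epcam, RA raised 1 and lowered 0. That gene was fat1a, which encodes a giant atypical cadherin; its DMSO arrays read 6.06, 6.83, 4.88 and 6.31 and its RA arrays 8.06, 7.89, 7.30 and 6.76. One RA array lay among the controls, and the log2 fold change of 1.48 ± 0.42 had an adjusted p of 0.0464. Of 9 tight junction partners limma called 0 (1 at an unadjusted p under 0.05), and of 12 genes of desmosomes and the cornified envelope 0 (3 at an unadjusted p under 0.05). Medians of the 3 lists were 0.11, 0.01 and 0.08, against 0.01 over all probe sets.

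Of 16 regulators of the epidermis and enveloping layer, RA raised 1 and lowered 3, where 3.18% of all probe sets were called higher and 2.57% lower. The gene elf3, an ETS transcription factor of epithelial cells, rose from between 4.44 and 4.50 in DMSO to 5.84, 6.49, 6.34 and 6.43, a log2 fold change of 1.80 ± 0.13 (adjusted p = 4.41e-08). The genes that fell were dlx3b, a gene of the neural plate border and placodes (-1.22 ± 0.17), dlx5a (-1.05 ± 0.18) and the hatching gland factor klf17 (-1.03 ± 0.12). The epidermal regulator tp63 had -0.32 ± 0.15 (adjusted p = 0.384). Of 6 regulators of epithelial-mesenchymal transition, RA lowered 1, twist1a (-1.29 ± 0.24), and raised 0. The antagonist at 10 µM called 0 genes in each of these lists, where 1 of the 16 epidermal regulators and 0 of the 37 other genes had an unadjusted p under 0.05.

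Markers of tissues were read in the same way, beside 3.18% of all probe sets called higher and 2.57% called lower under RA. For 12 enveloping layer markers outside the set, limma called 0 under RA (1 at an unadjusted p under 0.05), and their summed intensity ran from 31071 to 33134 in DMSO and from 31181 to 33241 under RA. For 13 paraxial mesoderm markers, 6 were lower and 0 higher, and the sum ran from 7325 to 8872 in DMSO and from 3318 to 3966 under RA. For 11 neural plate markers, 5 were lower and 0 higher, and the sum ran from 11525 to 13379 in DMSO and from 8963 to 9696 under RA. Of 12 notochord and axial markers 1 was higher and 3 lower, with sums from 3790 to 4478 in DMSO and from 3006 to 3267 under RA. Of 5 endothelial and blood markers 2 were lower and 0 higher, with sums from 427 to 469 in DMSO and from 234 to 283 under RA. RA lowered 1 of 9 endoderm, 1 of 3 hatching gland and 1 of 8 yolk syncytial layer markers and raised 0. The hatching gland marker that fell was klf17, already counted among the epidermal regulators. The sums of the paraxial, neural, notochord and endothelial lists were thus lower without overlap. So were 8 of the 44 tested entries. They were cdh11, cldn5a and pcdh10b, which were called, and cdh1, cldnb, cldn3c, cldn34a and pcdh19, which were not called in the main fit. Those of the enveloping layer, endoderm, hatching gland and yolk lists overlapped between RA and DMSO. Members of the set that stand in the lower lists were left out of the sums, and none of them was called. Their log2 fold changes under RA were 0.07 for cdh2 (neural), 0.08 for krt18a.1 (notochord) and -0.47 for pcdh8 (paraxial), with arrays overlapping those of DMSO. The part of the lower lists in the falls of the 8 entries was not tested. In RNA of whole embryos, fewer cells of a type and less RNA per cell cannot be told apart.

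All 16 arrays were of similar brightness, with median intensities from 73.5 to 79.6, and the mean correlation of an array with the other arrays of its group, across probe sets, was between 0.975 and 0.989. The 14 entries that did not pass the filter were krt1-19d, krt15, krt93 and krt94, the claudin genes cldn1, cldn10l2, cldn11a and cldn15la, the 4 cadherins named above, and pcdh1a6 and pcdh1b. Apart from cdh13, above log2 4 on 1 array, and cdh15, on 2, they exceeded that level on no array. Of the members with 1 symbol, 21 of 55 lie next to another member in the gene table, most of them in rows of claudin or keratin genes.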

How the data were processed

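Affymetrix arrays of 16 whole-embryo RNA samples were used. The authors deposited a linear intensity for each probe set. Per the submitters' processing notes it was computed with GCRMA, without a stated version, and no other scaling step is named there. Log2 of these intensities was analysed. Of 15617 probe sets, 115 controls were left out, and 11843 that exceeded log2 4 on at least 4 arrays were tested. The 4 group means were fitted with limma 3.58.1 in R 4.3.3 (12 residual degrees of freedom) and 5 contrasts were tested two-sided, each adjusted by the Benjamini-Hochberg method over all tested probe sets. The number of arrays limits the precision.

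Symbols came from the platform annotation (10795 probe sets with 1 symbol, 135 with several, 4572 with none); the 55 single members matched the gene table of assembly GRCz12tu by Entrez number, with no symbol changed. Paralogues may share probes. Values are given for every member called, the 4 with the smallest p in each family and 20 tested genes of a fixed list of 27, and, chosen after their values were seen, krtcap2, cldng and 3 claudin genes close to named ones in the gene table (cldnd, cldnf, cldnj). The shared cyt1 and pcdh2 probe sets, which fall under none of these rules, are also given with values. Members and lists were chosen with earlier results of these data known. Promoter and protein sequences were not used here. Same-numbered RA and DMSO arrays deviated together from their group means, with r from 0.134 to 0.336 in the 4 pairs. Only 2 of the 4 pairs correlated best with their own number. The numbers may thus pair these samples, but the main fit did not use this pairing, which entered only as the replicate block. In the other comparisons at least 1 pair lay under 0.1. Alternatives were other filters, a replicate block, quantile normalization, array weights, a pseudocount of 16, an intensity trend, averaged probe sets, the compared groups alone and leaving out each array. The tests were tried on simulated data.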

Additional observations from a re-analysis of the deposited data

Results flagged for a closer look

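Among the 29 named entries, 116 groups of 4 arrays were examined for an array far from the other three of its group, and 6 were found, where chance gives about 1 in 20. In cldn34a, replicate 2 of the 1 µM antagonist read 6.48 against 5.70 to 5.80. In pcdh10a, replicate 4 of the 10 µM antagonist read 4.35 against 4.10 to 4.14, and still lay below all DMSO arrays. Replicate 2 of the 10 µM antagonist was high in krt1-19e (5.44) and in cdh17 (5.05). DMSO replicate 4 was high in cldnb (9.98 against 9.70 to 9.73) and in krt18b (4.27 against 3.77 to 3.82).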

How the results depend on the processing

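Of 251 recomputed fold changes of called entries, 226 kept their direction and call, 25 lost the call and 0 reversed. Many of them could not reverse. The other filters, replicate block, intensity trend, compared groups alone and the run without 1 µM replicates 1 and 4 leave the fold change as it was. Averaging leaves genes with 1 tested probe set as they were. Under these settings only the call could change. The calls of cldn3d, pcdh10a and pcdh10b, in both comparisons with RA, held under every alternative run. Leaving out 1 array gave 4 to 5 calls for RA against DMSO, 5 (without antagonist replicate 3) to 9 for RA against the 10 µM antagonist and 0 in the other 3 comparisons. Array weights moved the counts most: 11 entries (2 higher, 9 lower) for RA against DMSO, 15 (4 higher, 11 lower) for RA against the 10 µM antagonist and 4 for the 10 µM antagonist against DMSO. Those 4 were cdh11 (0.59), the shared pcdh1g probe set (0.93), cldn3d (-1.10) and pcdh10a (-0.67); the cause was not tested. The weights ran from 0.492 to 3.47. For RA against DMSO the entries that array weights added were all lower under RA. They were cldn3c (-0.49, adjusted p = 0.00989), cldnb (-0.53, 0.0204), cldn34a (-0.58, 0.0227), krtcap2 (-0.82, 0.0293), cdh1 (-0.38, 0.0394) and pcdh19 (-0.27, 0.0491). The replicate block gave 7 calls for RA against DMSO, adding krt91 and krt97. For RA against the 10 µM antagonist it gave 12, adding cldnb, krt91 and krt97 (adjusted p of 0.0210, 0.00379 and 0.0357). It gave 0 in the other 3 comparisons, and no call was lost under it. Besides the losses named above, cldn3c lost its call against the antagonist after quantile normalization, with the pseudocount and with the compared groups alone (adjusted p of 0.105, 0.0676 and 0.0865). Near the detection filter (cldn3c, cldn3d, krt18b and, in the groups without RA and most at 10 µM antagonist, pcdh10a) signal over background limits the fold.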
